A study of Mus musculus with 10 samples.

Results

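The genes described here are 10 targets of the integrated stress response (ISR) in mouse embryonic stem cells (ESCs): Atf4, Atf5, Ddit3, Ddit4, Trib3, Asns, Chac1, Sesn2, Ppp1r15a and Psat1. They were taken by symbol from a count table of 51467 genes, in which each of the 10 had 1 row, and all 10 were among the 11683 genes abundant enough to be tested (at least 3 CPM in 3 or more libraries). Of these, 9 would have passed without any 1 of the 3 groups, but Chac1 passed only through DDX6 KO, where it was highest: all 4 DDX6 KO libraries, 1 WT library and 0 DGCR8 KO libraries reached 3 CPM. The table holds 10 QuantSeq libraries, in which each read comes from the 3′ end of a polyadenylated transcript, so that CPM, the counts of a gene scaled for the size of its library, were compared between genes with no term for length. WT was the V6.5 ESC line (3 libraries). DGCR8 KO (3 libraries) was a line lacking Dgcr8, which encodes the RNA-binding partner of Drosha in the nuclear processing of microRNAs (miRNAs). DDX6 KO (4 libraries) lacked Ddx6, which encodes an RNA helicase that acts with miRNAs in translational repression, and came from 2 clones with 2 libraries each. Both DDX6 KO clones were derived from V6.5 by CRISPR-Cas9 editing and carried different lesions that bring a premature stop, and DGCR8 KO was a line made earlier. All cells were grown with serum, LIF and the inhibitors PD0325901 and CHIR99021, and the labels name no stress agent. Nothing in the labels says that libraries of a group came from separate cultures, so p-values measure the spread between these libraries.

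In the ISR, one of 4 kinases phosphorylates the translation factor eIF2, which lowers general protein synthesis while the mRNA of the transcription factor ATF4 is translated more. ATF4 then binds C/EBP-ATF response elements and raises genes for amino acid synthesis, redox balance and further signalling, together with genes that end the response. ESCs in particular depend on one-carbon and amino acid metabolism, and several ATF4 targets are abundant in them without added stress. ATF4 is controlled largely through upstream open reading frames, so its mRNA level and its activity can differ, and only mRNA was measured here.

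All 10 are protein-coding genes, and reads were counted over their annotated exons. In mm10 the exons of the transcription factor genes span Atf4 at chr15:80255184-80257540 (plus), Atf5 at chr7:44812256-44816658 (minus) and Ddit3 at chr10:127290774-127296288 (plus). The other members are Ddit4 at chr10:59949669-59951834 (minus), Trib3 at chr2:152337422-152344032 (minus), Asns at chr6:7675169-7693254 (minus), Chac1 at chr2:119351229-119354381 (plus), Sesn2 at chr4:132492032-132510501 (minus), Ppp1r15a at chr7:45522917-45526268 (minus) and Psat1 at chr19:15904678-15925059 (minus), with the strand in parentheses.

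The promoters of the 10 genes (RefSeq, GRCm38.p6, 250 bases before to 50 bases after each start) were searched on both strands for the core of the C/EBP-ATF response element, TGATGNAAN. All 10 genes had at least 1 promoter in that table, and 3 of the 10 held a match. Of 32851 promoters in the table, 3.95% held a match to this core, as did 2.57% of the 8903 tested genes with a promoter. With the exact letters TGATGCAAT, 0 of the 10 genes matched, beside 0.124% of those tested genes. The 3 matches are shown because 2 of these genes, Trib3 and Asns, fell in DGCR8 KO against WT and the third, Chac1, had the largest fold difference between the knockouts. Each is given 5′ to 3′ on the gene's own strand, with the matching 9 bases in capitals.
Trib3, chr2:152344029-152344057, minus strand: ttagctcaggTTTACATCAgccgggcggg
Asns, chr6:7693214-7693242, minus strand: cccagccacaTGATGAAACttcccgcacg
Chac1, chr2:119351038-119351066, plus strand: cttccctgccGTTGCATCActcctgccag
The Trib3 and Chac1 matches lay on the strand opposite to the gene, and the Asns match on the gene's own strand. The match began 13 bases after the RefSeq start of Trib3, 23 bases before that of Asns and 194 bases before that of Chac1. These are matches of letters in a short window, and elements farther out were not searched.

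DGCR8 KO cells lack the miRNAs that need DGCR8, the most abundant of which in ESCs are the ESC-specific cell cycle regulating (ESCC) miRNAs. Those of this seed in the reference table are printed with the seed, bases 2 to 8, in capitals.
miR-291a-3p: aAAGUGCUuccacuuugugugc
miR-294-3p: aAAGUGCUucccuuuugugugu
miR-295-3p: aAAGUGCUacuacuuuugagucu
miR-302b-3p: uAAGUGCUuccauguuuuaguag
miR-302d-3p: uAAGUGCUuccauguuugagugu
These 5 were picked by the seed AAGUGCU, so they share it by selection. Sites that pair with it (AGCACTT or GCACTTA) were searched in the 3′ UTR of the main coding transcript of each gene (Gencode M21). Of the 10 members, Sesn2 alone held 1, with the G of the site at base 1265 of a 3′ UTR of 1684 bases. The site is shown with the pairing bases in capitals.
Sesn2 site: caccaccgacaAGCACTTtgcagagcaaac
Of 10898 tested genes with an annotated 3′ UTR, 20.0% held at least 1 such site, and their median 3′ UTR was 1061 bases long. The 3′ UTRs of Ppp1r15a, Atf4, Asns and Ddit3 were short, at 71, 81, 146 and 197 bases. In the 5′ UTRs, which were longest in Ppp1r15a (764 bases) and Atf4 (594 bases), upstream ATG codons numbered 7 in Ppp1r15a, 3 in Atf4, 2 in each of Atf5 and Ddit3, 1 in each of Asns, Sesn2 and Psat1, and 0 in Ddit4, Trib3 and Chac1. In Atf4, Atf5, Ppp1r15a and Psat1, 1 of these opened a frame that ran past the main start codon in another frame, which 16.2% of 10835 tested genes with a 5′ UTR showed. At least 1 upstream ATG was present in 51.9% of those genes.

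The depth was 2131156 to 4745083 counts over genes per library, and WT replicate 3 was the deepest. A floor of 3 counts stood at 0.669 to 1.44 CPM. Each targeted gene was lower in its knockout: Dgcr8 was at 9.16 to 15.5 CPM in DGCR8 KO and 50.4 to 65.8 CPM in WT, and Ddx6 at 25.7 to 149 CPM in DDX6 KO and 505 to 586 CPM in WT. All 8 ESC markers were present in every group, with summed levels of 3640 to 4309 CPM. Of these, by the test rule given below, 1 rose and 4 fell in DGCR8 KO, where 19.9% and 16.5% of all tested genes did. Sox2 was at 0.50 and Klf4 at -0.46 on the log2 scale against WT. In DDX6 KO 1 rose and 1 fell, where 17.9% and 16.6% of all tested genes did, with Nanog at 0.62 and Tfcp2l1 at -0.50. The 8 fibroblast markers summed to at most 10.6 CPM, with Postn and Dcn at 0 in WT and DDX6 KO, and Col1a1, the 1 that was tested, through DDX6 KO alone, averaged 1.88 CPM in WT, 0.566 CPM in DGCR8 KO and 4.07 CPM in DDX6 KO. The 7 primitive endoderm markers summed to 8.69 to 13.4 CPM in WT, 4.07 to 6.45 CPM in DGCR8 KO and 17.4 to 24.5 CPM in DDX6 KO, with Sox7 at 0 in the first 2 groups, and Dab2, the 1 of them that was tested, fell in DGCR8 KO by 2.36 and rose in DDX6 KO by 1.56 on the log2 scale. The part of these markers in the differences below was not tested. In bulk libraries, fewer cells of a type and less RNA per cell cannot be told apart. Chromosome 6 stood apart in DDX6 KO, where the median log2 fold change of its 561 tested genes against WT was 0.59, and chromosome 8 stood apart in DGCR8 KO, at -0.45 over 644 genes. The medians of the other 18 chromosomes lay between -0.06 and 0.17 in DDX6 KO and between -0.03 and 0.10 in DGCR8 KO. Of the 10 members, Asns lies on chromosome 6 and none on chromosome 8.

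The first comparison asked how the members stood in cells without DGCR8. Asns, Psat1, Ddit4 and Trib3 were lower in DGCR8 KO than in WT, at 48.1%, 44.6%, 52.0% and 40.7% of the WT mean, while Ddit3 and Sesn2 were higher, at 1.75 and 1.39 times it. Genes were said to rise or fall at an adjusted p under 0.05 (two-sided limma test with voom weights, adjusted by Benjamini-Hochberg over every tested gene). By this rule 4 of 10 members fell and 2 of 10 rose, where 16.5% of all tested genes fell and 19.9% rose. With a log2 fold change beyond 1 in size as well, 3 of 10 members were called, where 14.7% of all genes were. The median log2 fold change of the 10 members was -0.68, against 0.00 over all genes, and -0.41 over the 9 without Chac1. In DDX6 KO against WT, 1 of 10 members fell, Psat1, and 0 of 10 rose, where 16.6% and 17.9% of all genes did, and 0 of 10 were called, where 11.2% of all genes were. Before adjustment, 0 members were higher and 2 lower in DDX6 KO at p under 0.05, and edgeR's quasi-likelihood test and DESeq2 also put 0 members higher. With the replicate number as a block in limma, 1 member was higher, Trib3. The members' median in DDX6 KO was 0.08, against 0.02 over all genes.

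**Figure D1:**
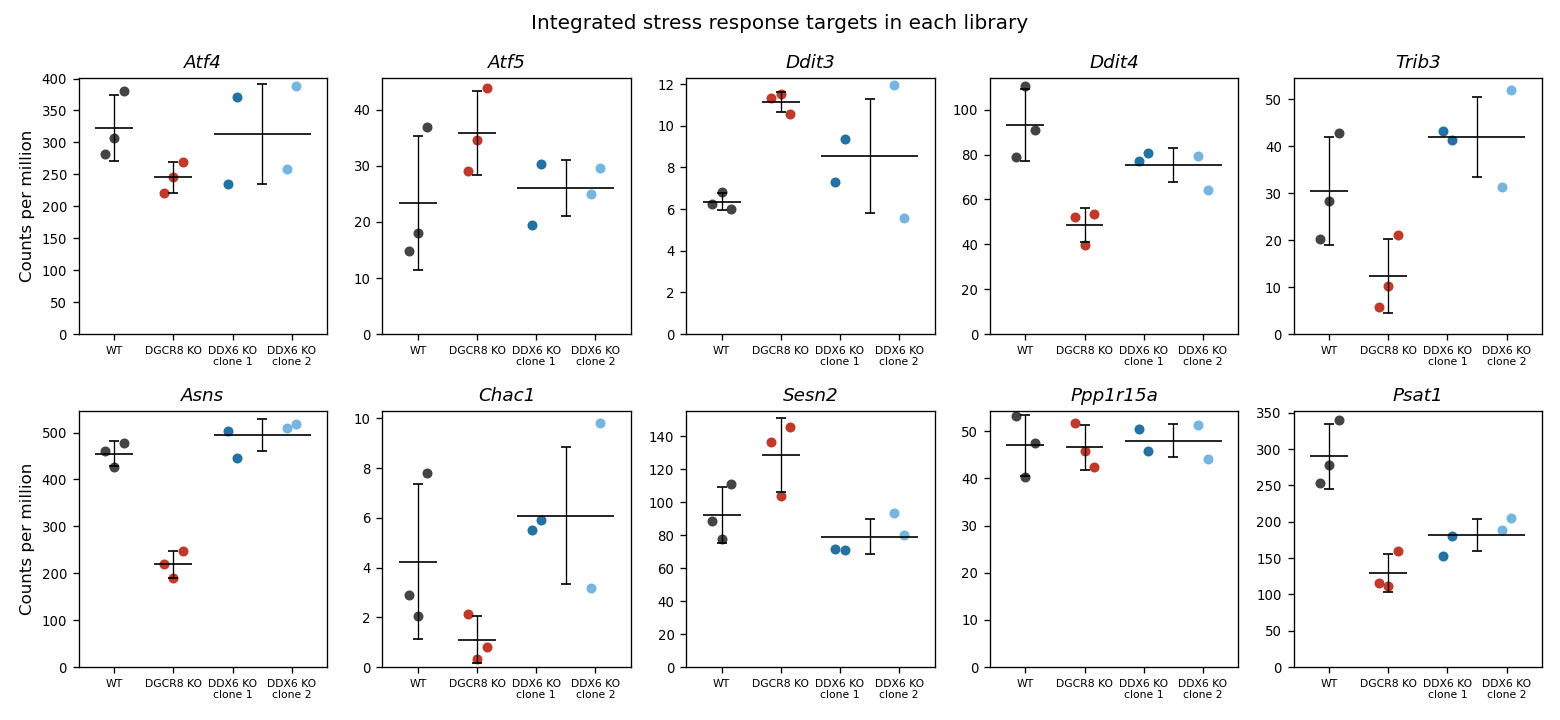
CPM of each of the 10 members in every library (points), with the mean (line) and SD (bar) of WT, DGCR8 KO and all 4 DDX6 KO libraries. In the panels of Asns and Ddit4 the 3 DGCR8 KO points lie below all others, while in the panel of Ppp1r15a the groups overlap between 40.2 and 53.3 CPM.

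Taken over the 10 genes, the level summed to 1260 to 1542 CPM in WT, 793 to 995 CPM in DGCR8 KO and 1167 to 1398 CPM in DDX6 KO. Asns made up 31.0% to 36.6% of that sum in WT, 23.9% to 26.0% in DGCR8 KO and 34.7% to 43.2% in DDX6 KO. It was the highest member in every WT and DDX6 KO library, whereas Atf4 was the highest in all 3 DGCR8 KO libraries, where the ranges of Atf4 and Asns overlapped. In WT the order went on with Atf4 and Psat1, whose ranges overlapped, then Ddit4 and Sesn2, which overlapped as well, Ppp1r15a, Trib3 and Atf5, each overlapping the next, and Ddit3 and Chac1, the lowest members, which overlapped with each other.

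Among the transcription factors, Atf4, the factor that drives this response, measured 281, 307 and 381 CPM in WT. In DGCR8 KO it was 221, 246 and 270 CPM. In DDX6 KO it was 234 and 372 CPM in clone 1 and 259 and 389 CPM in clone 2. The DGCR8 KO libraries were all below the WT libraries, but DDX6 KO overlapped with both groups. The log2 fold change of Atf4 in DGCR8 KO against WT was -0.41 (SE 0.17) and missed the threshold (limma, adjusted p = 0.0666). With the replicate number as a block, Atf4 passed it at -0.39 (limma, adjusted p = 0.00633). In all, 8 of 22 alternatives put it past the threshold, at -0.50 to -0.27 over the 22. Leaving out WT replicate 1 was one of them (-0.50, limma adjusted p = 0.0469). TMM scaling from genes outside chromosomes 6 and 8 was another, as was a fit of only the 2 groups compared. Leaving out the first library of clone 1 (limma, adjusted p = 0.0379) or the second of clone 2 (limma, adjusted p = 0.0478), both outside this comparison, also put it past. In DDX6 KO against WT Atf4 was at -0.07 on that scale (SE 0.15, limma adjusted p = 0.742).

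Same-numbered WT and DGCR8 KO libraries deviated together, as set out with the processing. In each of the 3 same-numbered pairs, Atf4 was lower in DGCR8 KO than in WT. WT replicate 3 was the highest WT library for 7 of the 10 members, Atf4, Atf5, Trib3, Asns, Chac1, Sesn2 and Psat1.

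Atf5, a factor of the same family that acts in mitochondrial and endoplasmic reticulum (ER) stress, was at 14.9, 18.1 and 37.0 CPM in WT and at 29.1, 34.6 and 44.0 CPM in DGCR8 KO. In DDX6 KO it was at 19.4 and 30.3 CPM in clone 1 and 25.0 and 29.7 CPM in clone 2. WT replicate 3 lay among the DGCR8 KO libraries and the other two WT libraries lay below them. The log2 fold change in DGCR8 KO against WT was 0.56 (SE 0.27, limma adjusted p = 0.110). It passed the threshold with the replicate block (0.61, limma adjusted p = 0.0172), and without WT replicate 3 (1.06, limma adjusted p = 0.00689). Atf5 thus stood above WT in each of the 3 pairs, while Atf4 stood below.

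Ddit3 encodes CHOP, a factor associated with prolonged stress and cell death, and was low throughout. It was at 6.24, 6.81 and 6.02 CPM in WT, from 13 to 27 counts a library, and at 11.3, 11.5 and 10.6 CPM in DGCR8 KO. The groups did not overlap. In DDX6 KO it was at 7.33 and 9.39 CPM in clone 1 and 11.96 and 5.60 CPM in clone 2 and so covered the values of both other groups. Ddit3 rose in DGCR8 KO by 0.81 on the log2 scale (SE 0.30, limma adjusted p = 0.0401). That call rested on few counts and was lost in 10 of 22 alternatives, with log2 values of 0.72 to 0.86 over all 22. Those 10 included leaving out any 1 of WT replicates 1, 2 and 3, any 1 of DGCR8 KO replicates 1, 2 and 3, or the first library of DDX6 KO clone 1, where limma's adjusted p was 0.0515 to 0.143.

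Of the genes that restrain the response, Trib3 encodes a pseudokinase induced by ATF4 and CHOP that in turn inhibits ATF4 and AKT. Its promoter stretch is printed above. Trib3 was at 20.2, 28.3 and 42.8 CPM in WT and at 5.82, 10.2 and 21.2 CPM in DGCR8 KO. In DDX6 KO it was at 43.2 and 41.4 CPM in clone 1 and 31.3 and 52.1 CPM in clone 2. The highest DGCR8 KO library was just above the lowest WT library, but within each numbered pair DGCR8 KO was lower. Trib3 fell in DGCR8 KO by 1.59 on the log2 scale (SE 0.37, limma adjusted p = 0.00233) and passed in all 22 alternatives, at -2.01 to -1.11. In DDX6 KO against WT Trib3 was at 0.42 on that scale (SE 0.25, limma adjusted p = 0.214). Of 22 alternatives, 1 put it past the threshold, the replicate block, at 0.87.

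Chac1 encodes an enzyme that degrades glutathione and is one of the most responsive ATF4 targets. It was the lowest member by mean in each group, although Ddit3 was lower in WT replicate 3 and in the second library of clone 2. It had 6, 6 and 35 counts in the 3 WT libraries, 7, 1 and 2 counts in DGCR8 KO, 15 and 17 counts in clone 1 and 9 and 35 counts in clone 2. In CPM this was 2.04 to 7.80 in WT, 0.339 to 2.14 in DGCR8 KO and 3.17 to 9.80 in DDX6 KO. All DGCR8 KO libraries were thus below all DDX6 KO libraries, and the highest of them was just above the lowest of WT. The log2 fold change in DGCR8 KO against WT was -1.99 (SE 0.77) and missed the threshold narrowly (limma, adjusted p = 0.0508). With the replicate block it passed at -1.91 (limma, adjusted p = 0.0242), and 12 of 20 alternatives put it past the threshold, among them leaving out WT replicate 1 or 2 or either library of clone 2. The value ran from -2.58 without DGCR8 KO replicate 1 (limma, adjusted p = 0.0549) to -1.25 without WT replicate 3 (limma, adjusted p = 0.259). In DDX6 KO against WT it was 0.48 (SE 0.48, limma adjusted p = 0.461), and ran from 0.04 without WT replicate 2 to 1.22 without WT replicate 3, with no alternative past the threshold.

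Ppp1r15a encodes GADD34, the inducible subunit that directs a phosphatase to eIF2 and so ends the response. It was the steadiest member, at 40.2 to 53.3 CPM in WT, 42.4 to 51.7 CPM in DGCR8 KO and 44.2 to 51.4 CPM in DDX6 KO. The groups overlapped fully. Its log2 fold change was 0.01 in DGCR8 KO, with an interval of 2 SE each way from -0.29 to 0.31, and 0.04 in DDX6 KO, from -0.23 to 0.32. Neither passed the test.

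Ddit4 and Sesn2 both encode inhibitors of the growth-promoting kinase complex mTORC1, and in DGCR8 KO against WT Ddit4 fell and Sesn2 rose. Ddit4, which encodes REDD1, was at 78.7, 110 and 90.7 CPM in WT and at 52.4, 39.7 and 53.4 CPM in DGCR8 KO. In DDX6 KO it was at 77.3 and 80.7 CPM in clone 1 and 79.5 and 64.4 CPM in clone 2. DGCR8 KO lay below every other library. Ddit4 fell in DGCR8 KO by 0.95 on the log2 scale (SE 0.16, limma adjusted p = 1.4e-04). In DDX6 KO against WT it was at -0.31 (SE 0.14, limma adjusted p = 0.0853), and it passed the threshold without WT replicate 1 (-0.41, limma adjusted p = 0.0429).

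Sesn2 encodes a leucine-sensing protein that limits mTORC1 when amino acids are low. It was at 88.3, 77.3 and 111 CPM in WT, at 137, 103 and 146 CPM in DGCR8 KO, and at 71.4 and 71.0 CPM in clone 1 and 93.6 and 79.8 CPM in clone 2 of DDX6 KO. DGCR8 KO was above every DDX6 KO library, and its lowest library was below the highest of WT. Sesn2 is the member with an ESCC seed match in its 3′ UTR, and the part of that site in its level was not tested. It rose in DGCR8 KO by 0.46 on the log2 scale (SE 0.16, limma adjusted p = 0.0284). The call was lost in 6 of 22 alternatives, where the value ran from 0.33 to 0.62 over all 22, among them leaving out WT replicate 1 or 2 or DGCR8 KO replicate 1 or 3, at adjusted p of 0.0712 to 0.146 in limma. In DDX6 KO against WT it was at -0.24 (SE 0.15, limma adjusted p = 0.247). Another listed gene on the same strand, Gm12981, overlaps Sesn2 and had at most 4 counts in any library, and no other listed gene on its strand overlapped a member.

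Asns and Psat1 are the 2 biosynthetic members and were the most changed in DGCR8 KO by adjusted p. Asns encodes asparagine synthetase, a gene long studied for its response to amino acid shortage, and its promoter stretch is printed above. It was at 461, 427 and 478 CPM in WT and at 220, 190 and 247 CPM in DGCR8 KO. In DDX6 KO it was at 504 and 445 CPM in clone 1 and 511 and 519 CPM in clone 2. The DGCR8 KO libraries were far below the rest, and the DDX6 KO libraries overlapped with WT. Asns fell in DGCR8 KO by 1.07 on the log2 scale (SE 0.11, limma adjusted p = 7.5e-07), and its log2 fold change in DDX6 KO was 0.12 (SE 0.10, limma adjusted p = 0.367).

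Psat1 encodes phosphoserine aminotransferase, the second step of serine synthesis. It was at 253, 278 and 340 CPM in WT, at 116, 112 and 160 CPM in DGCR8 KO, and at 153 and 180 CPM in clone 1 and 188 and 205 CPM in clone 2 of DDX6 KO. Both knockouts lay below every WT library, with DGCR8 KO the lower of the 2 and its highest library within the range of DDX6 KO. Psat1 fell in DGCR8 KO by 1.20 (SE 0.15, limma adjusted p = 5.6e-06) and in DDX6 KO by 0.68 (SE 0.13, limma adjusted p = 6.6e-04) on the log2 scale. Both calls held in all 22 alternatives. It was the only member that passed the test in both knockouts.

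**Figure D2:**
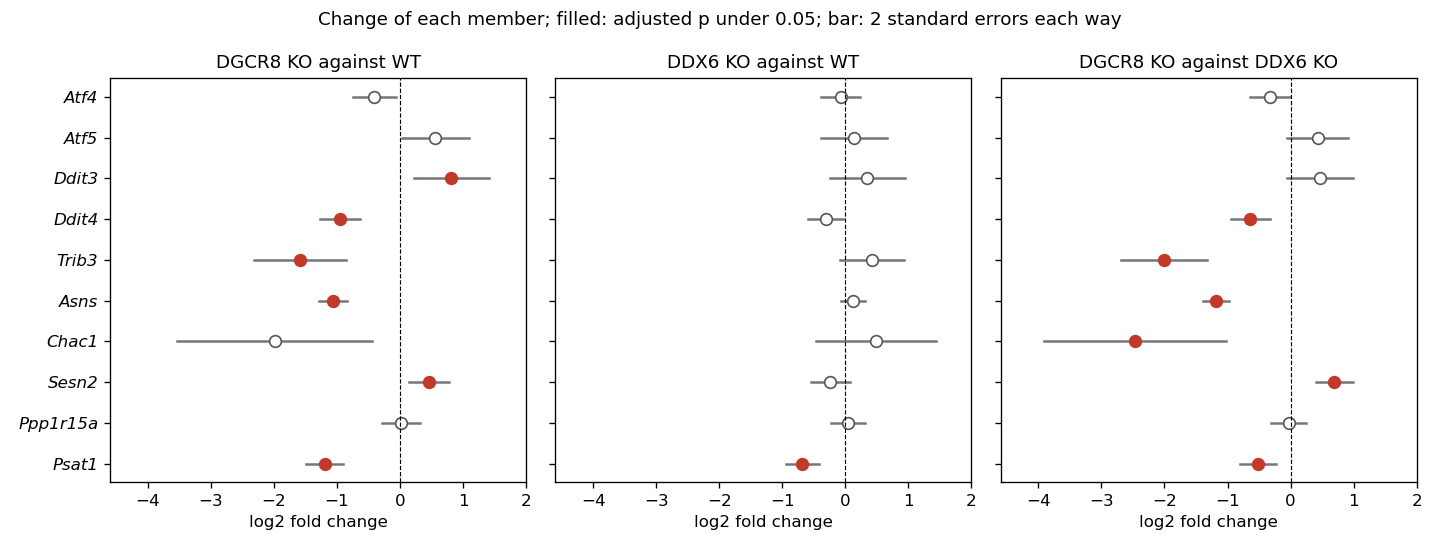
Log2 fold change of each member in 3 comparisons (points), with bars of 2 standard errors each way, and filled points for an adjusted p under 0.05. In DGCR8 KO against WT, 6 points are filled, 4 of them left of 0, in DDX6 KO against WT Psat1 alone is filled, and in the direct comparison Sesn2 is the 1 filled point right of 0 and 5 lie left of it.

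The direct comparison asked whether the members differed between the knockouts. Chac1, Trib3, Asns, Ddit4 and Psat1 were lower in DGCR8 KO than in DDX6 KO and Sesn2 was higher, so that 5 of 10 fell and 1 of 10 rose, where 21% of all tested genes fell and 23% rose, and 3 of 10 were called, where 17.1% of all genes were. Chac1 entered the test through its DDX6 KO level alone, and without it 4 of 9 fell, 1 of 9 rose and 2 of 9 were called. The log2 differences were -2.47 (SE 0.72) for Chac1, -2.01 (SE 0.34) for Trib3, -1.18 (SE 0.10) for Asns, -0.64 (SE 0.15) for Ddit4, -0.51 (SE 0.14) for Psat1 and 0.69 (SE 0.15) for Sesn2. Their adjusted p-values (limma) were 0.0100, 1.3e-04, 7.0e-08, 0.00252, 0.00710 and 0.00101. The values of Chac1 rest on 10 counts in all 3 DGCR8 KO libraries together and 76 counts in DDX6 KO. The difference ran from -3.07 without DGCR8 KO replicate 1 to -1.77 with limma-trend over the 21 alternatives, which all put it past the threshold. Since Chac1 entered the test through its DDX6 KO level, this passing is no separate support for the difference. Against DDX6 KO clone 1 alone, Psat1 no longer passed (-0.39, limma adjusted p = 0.0832). Atf4 was at -0.33 (limma, adjusted p = 0.0968) and passed in 4 of 22 alternatives, among them leaving out the first library of clone 1 (-0.47, limma adjusted p = 0.0182) or of clone 2 (-0.43, limma adjusted p = 0.0467).

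With total counts in place of the TMM scaling, the median of all genes in DDX6 KO against WT moved from 0.02 to 0.15, and 67.5% of the genes past the test were higher in place of 51.8%. In the direct comparison that share went from 52.3% to 38.8%. Every member that passed a comparison kept its direction and passed under this scaling, whereas Atf4 in DDX6 KO against WT went from -0.07 to 0.05. It also put Chac1 past the threshold in DGCR8 KO against WT (-2.00, limma adjusted p = 0.0487) and Atf4 in DGCR8 KO against DDX6 KO (-0.46, limma adjusted p = 0.0215), both lower.

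The 2 DDX6 KO clones were then set apart. In a fit with a group for each clone, 23.8% of all genes passed the test in clone 1 against WT and 24.6% in clone 2, and 0.0428% differed between the clones. Of the 10 members, Psat1 passed in clone 1 (-0.81, limma adjusted p = 0.00166) and in clone 2 (-0.56, limma adjusted p = 0.0140), and no other member passed in either. Before adjustment, Ddit4 in clone 2 was also under 0.05. None of the 10 differed between the clones (limma, smallest adjusted p 0.9997, smallest unadjusted p 0.182), with log2 differences of clone 2 minus clone 1 from -0.15 in Ddit4 to 0.27 in Sesn2. With 2 libraries a clone the intervals were wide, and those of Chac1 ran from -1.11 to 1.22.

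Asns was set beside the chromosome it lies on. In the 4 DDX6 KO libraries the median gene of chromosome 6 stood 0.68 and 0.63 (clone 1) and 0.56 and 0.53 (clone 2) above the WT mean on the log2 scale, while Asns stood at 0.15 and -0.03 and at 0.17 and 0.19. Asns was thus below the median of its chromosome in every DDX6 KO library, by 0.53 and 0.66 in clone 1 and by 0.39 and 0.34 in clone 2. In the fit, 104 of the 561 chromosome 6 genes had a lower fold change than Asns, which put it at percentile 18.5. In DGCR8 KO, where the chromosome 6 median was 0.07, Asns was below it by 1.09, 1.40 and 0.91 and at percentile 9.45. The part of the chromosome in the Asns level of DDX6 KO was not tested. The direct difference of -1.18 for Asns stands beside a median of -0.52 for chromosome 6 genes in the same comparison.

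**Figure D3:**
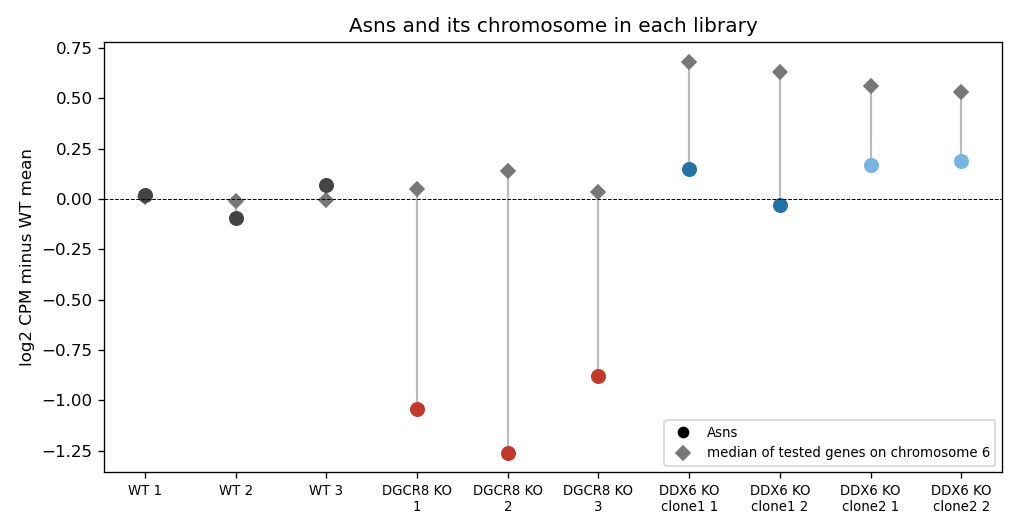
Log2 CPM minus the WT mean in each library for Asns (circles) and for the median tested gene of chromosome 6 (diamonds). The diamonds lie between 0.53 and 0.68 in the 4 DDX6 KO libraries, where the circles stay between -0.03 and 0.19, and in DGCR8 KO the circles fall to between -1.26 and -0.88.

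The other members lie on chromosomes whose median stayed near 0. In DGCR8 KO against WT, 11 of the 917 tested genes of chromosome 2 had a lower fold change than Chac1 and 22 a lower one than Trib3. On chromosome 19, 18 of 391 genes were below Psat1. Ddit3 and Ddit4, both on chromosome 10, stood at percentiles 84.2 and 7.62 of its 564 tested genes.

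Genes of the wider pathway, 105 in 9 lists apart from the 10 members, were counted by the same rule. Of all tested genes, 19.9% rose and 16.5% fell in DGCR8 KO against WT, 17.9% and 16.6% did in DDX6 KO against WT, and 23% were higher and 21% lower in DGCR8 KO than in DDX6 KO. Among 12 aminoacyl-tRNA synthetases known as ATF4 targets, which load amino acids onto tRNAs, 9 fell and 0 rose in DGCR8 KO against WT, with a median log2 fold change of -0.53. Tars (-0.97, SE 0.11) and Aars (-0.87, SE 0.14) had the smallest adjusted p. Of 10 that lie outside chromosomes 6 and 8, 8 fell. In DDX6 KO 5 of the 12 fell and 0 rose, led by Eprs (-0.51) and Mars (-0.65), with a median of -0.30. Among 8 other cytosolic synthetases, 3 fell in DGCR8 KO and 6 in DDX6 KO, where Vars (-0.85) and Rars (-0.58) led. Of the 3 in DGCR8 KO, Kars (-0.59) and Farsa (-0.53) lie on chromosome 8, and the list's median was -0.21 there and -0.46 in DDX6 KO.

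Of 14 tested genes for amino acid synthesis and transport under ATF4, 8 fell and 3 rose in DGCR8 KO, with a median of -0.60, and 2 fell and 4 rose in DDX6 KO, with a median of 0.03. Phgdh, which encodes the first enzyme of serine synthesis, fell from 14.5 to 4.54 CPM (-1.66, SE 0.31, limma adjusted p = 3.8e-04). It stands in the same pathway as Psat1. Slc7a5, a leucine transporter gene on chromosome 8, fell by 1.62 (SE 0.20), and Mthfd2, a gene of mitochondrial one-carbon metabolism on chromosome 6, fell by 1.19 (SE 0.16). In DDX6 KO Pycr1, a gene of proline synthesis, fell by 0.88 (SE 0.19) and Gpt2, for an alanine aminotransferase, rose by 0.61 (SE 0.13). In the direct comparison Slc7a5 (-1.84), Mthfd2 (-1.68), Phgdh (-1.22) and Aldh18a1 (-1.07), a gene of proline synthesis, were lower in DGCR8 KO. Outside chromosomes 6 and 8, 6 of 11 fell and 2 rose in DGCR8 KO.

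Other transcription factors and outputs under ATF4 went both ways. Of 13 tested, 3 rose and 4 fell in DGCR8 KO, and 5 rose and 2 fell in DDX6 KO. Among those that fell in DGCR8 KO, Gdf15 and Eif4ebp1 lie on chromosome 8. Of 10 outside chromosomes 6 and 8, 2 rose and 2 fell in DGCR8 KO, and 4 rose and 1 fell in DDX6 KO. In DGCR8 KO Gadd45a, a growth arrest gene on chromosome 6, rose from 5.47 to 37.1 CPM (2.78, SE 0.34), and Atf3 rose from 2.42 to 8.81 CPM (1.81, SE 0.56). Vegfa, an angiogenic growth factor gene, fell by 1.82 (SE 0.34), and Nupr1, a stress-induced regulator, fell by 1.75 (SE 0.50). In DDX6 KO Cebpb (2.31, SE 0.56), Atf3 (2.23, SE 0.53), Gadd45a (2.01, SE 0.34) and Vldlr (1.60, SE 0.44) rose, Cebpb from 2.31 to 9.03 CPM. Cebpb and Vldlr passed the filter on low values only through DDX6 KO, where they were highest, and without them 3 of 11 rose. Gdf15 (chromosome 8), Vegfa, Nupr1 and Cebpb were lower in DGCR8 KO than in DDX6 KO, with log2 differences of -1.12, -2.22, -2.05 and -3.71, and Cebpb had 0, 5 and 3 counts in the DGCR8 KO libraries.

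**Figure D4:**
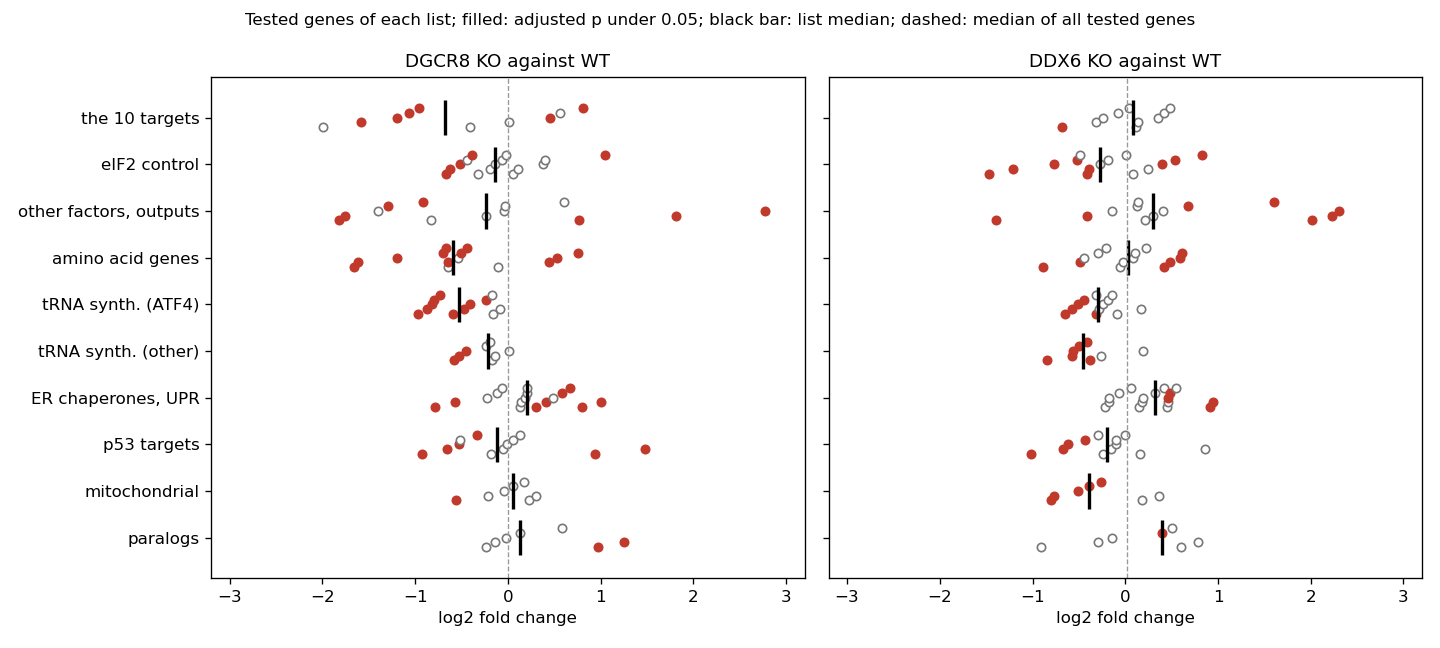
Log2 fold change of the tested genes of each list in DGCR8 KO against WT (left) and DDX6 KO against WT (right), filled where the adjusted p is under 0.05, with the median of the list as a black bar and that of all tested genes as a dashed line. In the left panel the 10 targets, the amino acid genes and the ATF4-linked tRNA synthetases have medians of -0.68, -0.60 and -0.53, and in the right panel 0.08, 0.03 and -0.30.

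Of 15 genes upstream of the response, coding for the eIF2 kinases, eIF2, its exchange factor and related regulators, 4 fell and 1 rose in DGCR8 KO. Impact, which encodes an inhibitor of the kinase GCN2, rose from 210 to 432 CPM (1.05, SE 0.16, limma adjusted p = 5.1e-05). In DDX6 KO 6 fell and 3 rose. Eif2b5, which encodes the catalytic subunit of the exchange factor, fell from 857 to 310 CPM (-1.47, SE 0.12), and Eif2s2, for the beta subunit of eIF2, fell from 1689 to 731 CPM (-1.21, SE 0.09). Eif2b5 was also higher in DGCR8 KO than in DDX6 KO by 1.33 (SE 0.12). Eif2ak3, which encodes the ER-stress kinase PERK, rose in DDX6 KO, but lies on chromosome 6, and 2 rose of the 14 genes elsewhere.

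The genes of the other 2 arms of the unfolded protein response were counted next. Of 17, 6 rose and 2 fell in DGCR8 KO, with a median of 0.21, and 4 rose and 0 fell in DDX6 KO, with a median of 0.32. Dnajb9, an ER chaperone gene under XBP1, rose in DGCR8 KO by 1.01 (SE 0.29, limma adjusted p = 0.00996). In DDX6 KO Edem1 (0.91) and Pdia4 (0.46) rose, both on chromosome 6, and 2 of 13 genes outside chromosomes 6 and 8 rose. Herpud1, on chromosome 8, was lower in DGCR8 KO than in DDX6 KO by 1.20 (SE 0.19).

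Of 12 p53 targets, a pathway that also acts on Sesn2 and Ddit4, 2 rose and 4 fell in DGCR8 KO and 0 rose and 4 fell in DDX6 KO, where 19.9% and 16.5% and then 17.9% and 16.6% of all tested genes did. Perp rose in DGCR8 KO by 1.48 (SE 0.35), Bbc3 fell in DDX6 KO by 1.01 (SE 0.18), and in the direct comparison Cdkn1a was higher (0.79) and Mdm2 lower (-0.49) in DGCR8 KO. Of 7 genes for mitochondrial chaperones and proteases, 1 fell in DGCR8 KO, Hspe1 (-0.56, SE 0.13), and 5 fell in DDX6 KO, where Hspd1 (-0.77, SE 0.08) and Hspe1 (-0.80, SE 0.13) led. Lonp1 was at 0.31 in DGCR8 KO (limma, adjusted p = 0.05004). In the direct comparison 4 of the 7 were higher in DGCR8 KO, among them Hspd1 (0.55) and Lonp1 (0.69).

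Among 7 paralogs of the members, 2 rose and 0 fell in DGCR8 KO, and 1 rose in DDX6 KO. Sesn3, a sestrin gene like Sesn2, rose in DGCR8 KO from 29.8 to 66.1 CPM (1.25, SE 0.24, limma adjusted p = 4.3e-04) and was at 0.61 in DDX6 KO (SE 0.23, limma adjusted p = 0.0512). Ppp1r15b, which encodes the constitutive counterpart of GADD34, rose in DDX6 KO by 0.40 (SE 0.12, limma adjusted p = 0.0166), where Ppp1r15a was at 0.04.

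The genes most like Asns and Psat1 over the 10 libraries were found among the 8621 tested genes that averaged 10 CPM or more, by the root mean square (RMS) difference of log2 CPM after subtraction of the WT mean. For Asns they were Shcbp1 (0.138), Cfap97 (0.140) and Ston2 (0.148), against a median RMS of 0.707 over all genes compared. For Psat1 they were Mcm5 (0.0987), Tecr (0.118) and Sub1 (0.134), against a median of 0.861. Shcbp1, Cfap97, Mcm5 and Tecr lie on chromosome 8, the chromosome that was lower in DGCR8 KO. Since libraries of a group share a line, this is a description of 3 groups more than of 10 independent samples.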

How the data were processed

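RNA of 10 mouse ESC samples was sequenced by QuantSeq 3′ FWD with single-end reads. Per the labels and the study's methods, the authors trimmed reads with cutadapt 1.14, aligned them to mm10 with STAR 2.5.3a, kept uniquely mapped reads and counted sense-strand reads over Gencode exons with featureCounts 1.5.3. The deposited values are raw counts per gene. No molecular identifiers are stated, so floors cover counting error only.

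Libraries were grouped by title. Spike-in counts (1.10% to 2.36% of each library) were set apart. Genes reaching 3 CPM in 3 or more libraries entered the fit (11683 of 24468 with any count, holding 99.4% to 99.6% of counts). They were scaled by TMM (edgeR 4.0.16) and fitted with limma 3.58.1 and voom weights in R 4.3.3, 1 model over 10 libraries with group as the only term. A separate fit held a group for each clone. The code was tested on simulated data. Group values are mean or single CPM, with SE from the fit. Alternatives were other scalings, transformations, tests (edgeR quasi-likelihood, DESeq2 1.42.0), filters, clones and libraries, and a replicate block. Those that left out only libraries of a group outside a comparison hardly moved the fold changes of members that passed it.

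Deviations from the group means correlated at 0.11, 0.23 and 0.24 between same-numbered WT and DGCR8 KO libraries. Between other numbers the correlations were negative. This adds no evidence of a pairing, since deviations from a group mean cancel out within the group. Between DDX6 KO libraries and same-numbered libraries of WT or DGCR8 KO the correlations were 0.13 to 0.15 for number 1 and -0.04 to 0.07 for number 2. For number 1 they were thus no lower than the 0.11 between WT and DGCR8 KO. The numbers were read as pairing WT with DGCR8 KO only, and whether they pair DDX6 KO libraries as well was not settled. The block fit still held all 10 libraries, with DDX6 KO libraries blocked by their numbers as well. The pairing comes from the numbers in the titles, and the block fit is given beside a result of that comparison where it changed a call.

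The members, lists and tests were chosen with earlier results of these data known. Named list genes were those called (at most 4 per list and comparison), otherwise the 2 with the smallest adjusted p. Symbols were matched by identifier to Gencode M21 (51274 of 51467). Promoters and miRNAs came from RefSeq. The main coding transcript was the one with the best APPRIS rank, then in the basic set with the longest coding part.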

Additional observations from a re-analysis of the deposited data

Results flagged for a closer look

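Among 54 genes examined for a single DDX6 KO library far from the other 3 (Dixon's test), 2 were found, and chance alone gives about 1 in 20. Klf4, an ESC marker, was at 1195 CPM in the second library of clone 1 and at 994 to 1009 CPM in the other 3. Col1a1, a fibroblast marker, was at 6.96 CPM in the first library of clone 1 and at 2.81 to 3.36 CPM in the others. None of the 10 ISR targets was found by this test, which was not run in WT or DGCR8 KO.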

How the results depend on the processing

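The 13 member changes that passed were refitted in at most 22 alternatives each, 285 values in all. Of these, 268 kept the direction and passed, 17 kept the direction without passing, and 0 reversed. The 268 include 21 of Chac1 between the knockouts, which entered the test through its DDX6 KO level. Alternatives that left out only libraries of a group outside the comparison hardly moved its value and are a weak check. Of the 17, 10 concerned Ddit3 and 6 Sesn2 in DGCR8 KO against WT, and 1 Psat1 between the knockouts, which was -0.41 with DDX6 KO clone 1 alone (limma, adjusted p = 0.0802). The number of members higher in DGCR8 KO than in WT went from 2 to 1 with DESeq2's Wald test, with DDX6 KO clone 2 alone and with only the 2 groups fitted, and to 0 with no filter on low counts. Leaving out 1 library gave 0 to 2. The number lower in DGCR8 KO than in WT went from 4 to 6 with TMM scaling from genes outside chromosomes 6 and 8. The number lower in DDX6 KO than in WT was 1 to 2 when 1 library was left out. With the replicate block, 1 member was higher in DDX6 KO (Trib3) in place of 0, 3 were higher and 6 lower in DGCR8 KO than in WT, and 6 were lower in DGCR8 KO than in DDX6 KO. DDX6 KO libraries share only a number with the others. The deviations of their replicate 1 correlated at 0.14 with same-numbered WT and at 0.13 to 0.15 with same-numbered DGCR8 KO. Those of replicate 2 correlated at 0.01 to 0.07 and at -0.04 to 0.01, so that not every library correlated best with its own number. In comparisons with DDX6 KO the block put Trib3 at 0.87 against WT (limma, adjusted p = 0.00267) and Atf4 at -0.44 between the knockouts (limma, adjusted p = 0.00204). Beyond these and those named with Atf4, Atf5 and Chac1, the block changed no call of a member. Requiring a log2 fold change beyond 1 left 0 higher in DGCR8 KO and 0 lower in DDX6 KO against WT, and 0 higher and 3 lower in DGCR8 KO against DDX6 KO. With the exact letters TGATGCAAT in place of the core, 0 promoters of members matched. The causes of these moves were not tested, and fits that left out libraries also had fewer of them. Chac1 was not tested in DGCR8 KO against WT where only those groups or genes of at least 10 CPM entered. At 2131156 to 4745083 counts a library, Ddit3 and Chac1 rest on few counts, and Chac1 had the largest standard error of the 10 members in each of the 3 comparisons.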
